A study of Mus musculus with 19 samples.

Results

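The 10 imprinted genes described here, H19, Igf2, Dlk1, Peg3, Mest, Plagl1, Cdkn1c, Grb10, Meg3 and Ndn, are growth genes of the mouse embryo. They were taken from the tables by symbol, with no threshold on their values, but the group was drawn up with earlier results of these data known. All 10 were found among the 13549 genes of the embryonic liver table and, by their Ensembl identifiers, among the 17606 genes of the tumour files. RNA sequencing covered 19 samples from mouse work on fibrolamellar carcinoma. This liver cancer carries a fusion that joins DNAJB1, a chaperone, to PRKACA, the catalytic part of the cAMP-dependent kinase PKA. In the embryo experiment, livers at embryonic day 18.5 came from 5 controls, labelled by that word alone, and from 4 embryos that overexpressed the fusion (genotype DNAJ1B-PKA_Overexpression). The fusion embryos came from crosses of Rosa26 LSL-DNAJB1-PKA-GFP mice, in which a stop cassette precedes the cDNA, with Alb-Cre mice, whose Cre is driven by the Albumin promoter and therefore acts in hepatoblasts and hepatocytes and not in every cell of the liver. The labels do not say whether the controls carried Cre or the silent allele. In the tumour experiment, FL8 cells, a line used by the study as a model of this cancer, were implanted subcutaneously, in capsules of methacrylated gelatin, into NSG mice, which lack T, B and NK cells but keep macrophages. Once tumours averaged 75 mm3, mice received vehicle or 75 mg/kg palbociclib, which blocks the cell cycle kinases CDK4 and CDK6, by mouth for 3 days, followed by 4 days without treatment. There were 5 tumours per treatment, all from the FL8 line, and the labels used here do not say which genotype the line carries.

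Imprinted genes are transcribed mainly from the copy inherited from 1 parent, and many of them set the size of the embryo and placenta. Paternally expressed genes such as Igf2, Dlk1, Mest, Peg3 and Plagl1 tend to promote growth, and maternally expressed genes such as H19, Cdkn1c and Grb10 tend to restrain it. In mice most of this network is active in fetal organs and is switched off in the liver and elsewhere in the weeks after birth, and parts of it return in liver tumours. Read counts do not show which parental copy was transcribed.

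Total counts, in M (1000000), were 7.66 to 45.6 M per embryo library and 2.96 to 43.1 M recovered reads per tumour library. Control embryos 1 and 2 and fusion embryos 8 and 9 had 9.68 to 10.1% of their counts on ribosomal protein genes, and control embryos 3 to 5 and fusion embryos 6 and 7 had 6.16 to 7.85%. These sets were read from the counts and not from the labels, and they are called the higher and the lower ribosomal set. Within the lower set genotype and sex coincided, since by Xist the fusion embryos were female and the controls male. Among the controls set and sex coincided, since controls 1 and 2 were female by Xist (448 and 391 CPM). Prkaca was 36.3 to 50.5 CPM (counts per 1000000) in controls and 52.0 to 114 CPM in fusion embryos, so the labelled groups did not overlap. The 12 hepatocyte markers summed to 98080 CPM or more in every embryo and to 43508 CPM or more in every tumour. Mitochondrial genes took 46.6% of the reads of vehicle tumour 1 and 1.24 to 6.47% of those of the remaining 9 tumours. The lowest depth was that of vehicle tumour 5.

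In fusion livers, Dlk1, Meg3 and Grb10 fell, and Mest and Peg3 rose. H19, Igf2, Cdkn1c, Plagl1 and Ndn did not pass the threshold, an adjusted p of 0.05 over all genes in the quasi-likelihood test of edgeR. That is 5 of 10 members, where 12.8% of the 13316 genes tested were called (5.99% higher and 6.81% lower). The median log2 fold change of the members was -0.23, against -0.01 over all genes tested. Groups did not overlap for 5 of the 10, Dlk1, Meg3, Grb10, Plagl1 and Mest, where the share over all genes was 16.5%. All 10 members passed the filter on low counts.

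**Figure D1:**
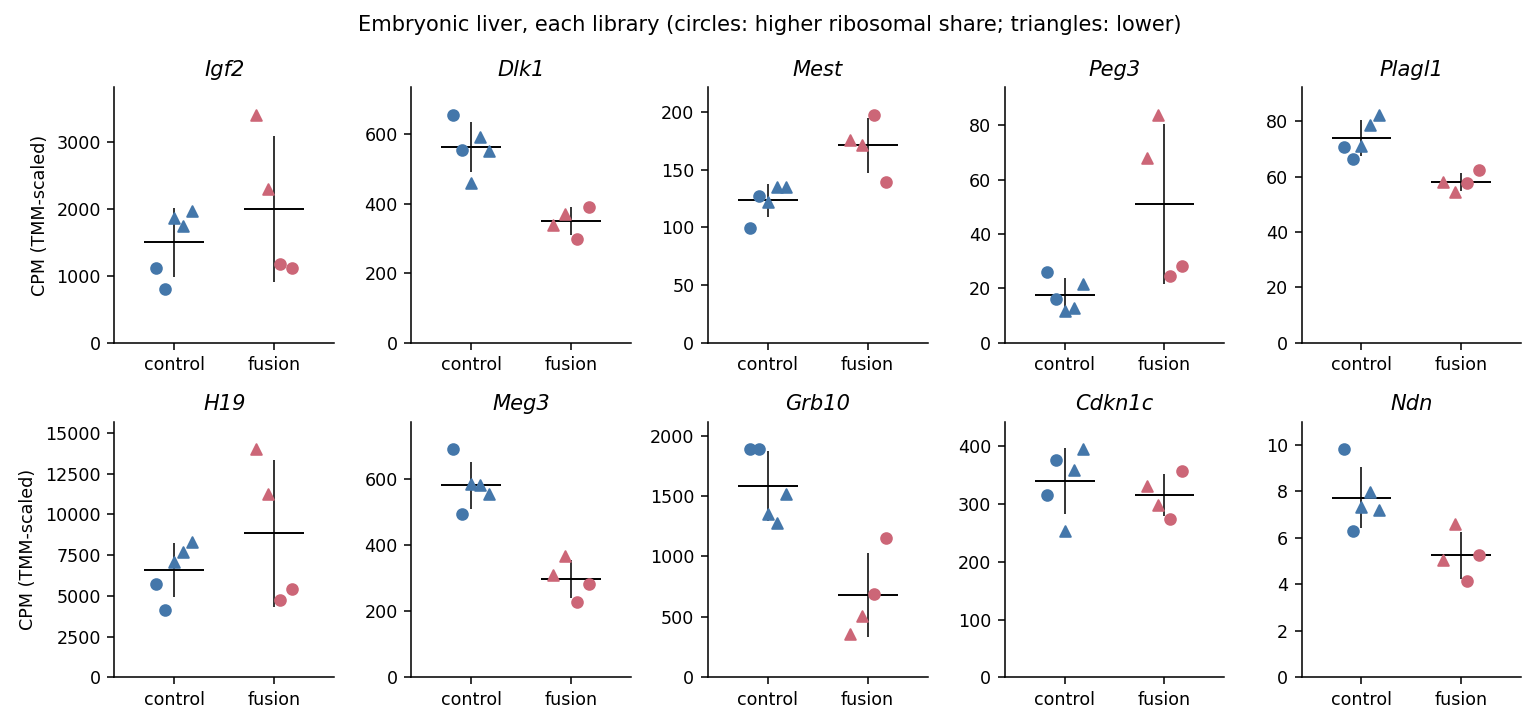
CPM after TMM scaling (vertical axes, linear from 0) of each member in the 5 control and 4 fusion livers; points are libraries, circles the higher and triangles the lower ribosomal set, horizontal bars means and vertical bars SD. Dlk1, Meg3, Grb10 and Plagl1 are lower in every fusion library than in every control, and H19 and Igf2 separate by ribosomal set within each genotype. Among controls set and sex coincide.

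The ligands of the group are Igf2, the fetal insulin-like growth factor, and Dlk1, a membrane and secreted protein related to Notch ligands that marks hepatoblasts. Dlk1 was 657, 555, 461, 592 and 552 CPM in control embryos 1 to 5 and 339, 372, 299 and 390 CPM in fusion embryos 6 to 9. Every fusion library lay below every control. The mean went from 563 ± 71.2 CPM (SD, n = 5) to 350 ± 40.4 CPM (SD, n = 4), 37.9% lower, with a log2 fold change of -0.69 ± 0.14 (SE) and an edgeR adjusted p of 0.012.

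Meg3, a long noncoding RNA of the same imprinted cluster on chromosome 12 that is transcribed from the maternal copy, was 690, 493, 584, 580.4 and 553 CPM in control embryos 1 to 5. It was 310.4, 368, 228 and 283 CPM in fusion embryos 6 to 9, again with no overlap. The mean was 580.1 ± 71.2 CPM in controls and 297 ± 58.2 CPM in fusion livers, with a log2 fold change of -0.97 ± 0.16 and an edgeR adjusted p of 0.0040. Dlk1 lies at chr12:109452823-109463336 and Meg3 at chr12:109541001-109571726 (GRCm38, both on the plus strand), so both fell and they are known to be expressed from opposite parental copies. Within a library, Meg3 had 0.888 to 1.27 reads per Dlk1 read in controls and 0.725 to 0.988 in fusion livers. The exact two-sided permutation test of that log2 ratio gave p = 0.071 (adjusted p = 0.21 over 3 ratio tests), which does not pass. Other noncoding RNAs of the cluster, chosen here after their values were seen, did not pass the edgeR threshold: Rian was 163 CPM in controls and 145 CPM in fusion livers on average, and Mirg 14.3 and 9.85 CPM.

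The genes whose levels were most like those of Dlk1 over the 9 embryos, by Pearson's r of log2 CPM among all genes outside the group with a mean of at least 1 CPM, were Slc1a4 (r = 0.97), a transporter of neutral amino acids, Srek1 (r = 0.97), a splicing factor, and Fam83f (r = 0.97). These correlations are a description, since the 9 libraries share the difference in genotype.

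The maternally expressed genes that restrain growth are Grb10, an adaptor that inhibits insulin and IGF receptor signalling, Cdkn1c, the cyclin-dependent kinase inhibitor p57, and H19, the noncoding RNA next to Igf2. Grb10 lies at chr11:11930508-12038683, Cdkn1c at chr7:143458339-143461050 and H19 at chr7:142575529-142578143, all on the minus strand. Grb10 was 1887, 1885, 1351, 1278 and 1515 CPM in control embryos 1 to 5 and 360.3, 509, 692 and 1155 CPM in fusion embryos 6 to 9. Groups did not overlap, and the fusion libraries were spread over a wider range, from 360.3 CPM in fusion embryo 6 to 1155 CPM in fusion embryo 9. The log2 fold change was -1.22 ± 0.30 (edgeR adjusted p = 0.023). Without control embryo 1, fusion embryo 7 or fusion embryo 8 the change of Grb10 was -1.14, -1.10 and -1.23 with edgeR adjusted p of 0.051, 0.070 and 0.061.

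Cdkn1c was 315, 376, 253, 359 and 395 CPM in controls 1 to 5 and 331, 299, 274 and 357 CPM in fusion embryos 6 to 9. Its groups overlapped, and the log2 difference of -0.11 ± 0.16 did not pass (edgeR adjusted p = 0.69). Ndn, which encodes necdin, a protein that holds back the cell cycle in neurons, lies at chr7:62346569-62350262 on the plus strand. It was 9.81, 6.27, 7.34, 7.97 and 7.20 CPM in controls and 5.03, 6.59, 4.14 and 5.27 CPM in fusion livers. Its highest fusion library lay above its lowest control, and the log2 difference was -0.56 ± 0.18 (edgeR adjusted p = 0.060).

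Mest, a membrane protein with a hydrolase fold that is made in mesoderm and fetal organs, lies at chr6:30723547-30748465, and Plagl1, a zinc finger factor that regulates other imprinted genes, at chr10:13060504-13131694, both on the plus strand. Mest was 99.8, 127, 122, 135 and 135 CPM in controls 1 to 5 and 176, 171, 198 and 139.6 CPM in fusion embryos 6 to 9. Every fusion library was above every control, by a narrow margin for fusion embryo 9. The log2 fold change was 0.47 ± 0.14 with an edgeR adjusted p of 0.046, and 8 of the 9 fits that left out a library, all but the fit without fusion embryo 9, took it past 0.05 (0.40 to 0.52, edgeR adjusted p 0.060 to 0.12). It did not pass with sex as a covariate (edgeR adjusted p = 0.088) or with a filter at a mean of 10 CPM (edgeR adjusted p = 0.060), where Plagl1 did (edgeR adjusted p = 0.038). Plagl1 was 70.6, 66.2, 71.1, 78.5 and 82.3 CPM in controls and 57.9, 54.5, 57.6 and 62.3 CPM in fusion livers. Its groups did not overlap either, and its log2 difference of -0.35 ± 0.11 had an edgeR adjusted p of 0.053, just outside the threshold that Mest was just inside.

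Peg3, a large zinc finger protein expressed from the paternal copy of chr7:6703892-6730431 (minus strand), was 26.0, 16.2, 11.8, 12.8 and 21.5 CPM in controls 1 to 5. It was 67.9, 83.9, 24.4 and 28.2 CPM in fusion embryos 6 to 9. Fusion embryos 6 and 7 stood far above all controls, while fusion embryos 8 and 9 were near control 1, so the groups overlapped. Over all 9 libraries the log2 fold change was 1.54 ± 0.37 (edgeR adjusted p = 0.020). Without control embryo 3 or fusion embryo 7 it was 1.44 and 1.20 with edgeR adjusted p of 0.055 and 0.060, and with sex as a covariate 1.24 with 0.062.

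H19 was 5727, 4121, 7065, 7675 and 8317 CPM in controls 1 to 5 and 13995, 11219.6, 4716 and 5443 CPM in fusion embryos 6 to 9. Igf2, at chr7:142650766-142666816 on the minus strand, was 1118, 798, 1859, 1741 and 1967 CPM in controls and 3402, 2297, 1169 and 1111 CPM in fusion livers. Both genes were lower in control embryos 1 and 2 than in controls 3 to 5, and lower in fusion embryos 8 and 9 than in fusion embryos 6 and 7. Among the controls a difference between sets cannot be told apart from one between female and male embryos. The log2 differences between genotypes were 0.43 ± 0.33 for H19 (edgeR adjusted p = 0.43) and 0.41 ± 0.36 for Igf2 (edgeR adjusted p = 0.49), within the spread of each group. Without fusion embryo 6 these were 0.13 and 0.038.

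Within the lower ribosomal set, 3 controls against 2 fusion livers, H19 was higher by 0.71 (edgeR adjusted p = 0.015) Igf2 by 0.62 (edgeR adjusted p = 0.032) and Peg3 by 2.30 (edgeR adjusted p = 0.00014). Within the higher set, 2 against 2, the same differences were 0.06, 0.26 and 0.30, none of which passed. The test of the difference between sets passed for Peg3 (2.01 on the log2 scale, edgeR adjusted p = 0.036) and not for H19 (0.67, edgeR adjusted p = 0.24) or Igf2 (0.37, edgeR adjusted p = 0.52). In the lower set no difference between genotypes, for Peg3 or any other member, can be told apart from one between female and male embryos. Dlk1 (-0.81 in the higher and -0.59 in the lower set), Meg3 (-1.20 and -0.76) and Grb10 (-1.02 and -1.67) were called in both sets. In all, 3 members were called within the higher set, where 20% of genes were called, and 8 within the lower set, where 21.8% were. With the set as a covariate 8 members were called, where 32.6% of genes were, and Igf2 (0.45), Plagl1 (-0.34) and Ndn (-0.56) joined the other 5. With sex as a covariate 3 were called, where 9.64% of genes were, and DESeq2 called 7, where 18.4% were.

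**Figure D2:**
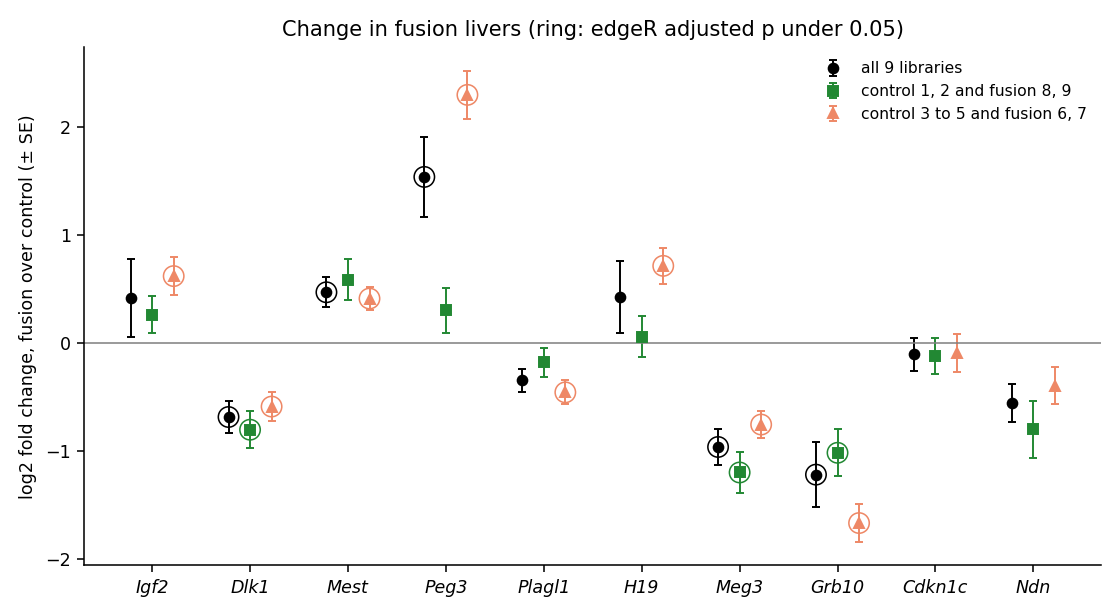
Log2 fold change of each member in fusion over control livers (vertical axis, bars are SE from edgeR) over all 9 libraries and within each ribosomal set; rings mark an edgeR adjusted p under 0.05. Dlk1, Meg3 and Grb10 carry rings in all 3 fits, and Peg3 differs between the sets by 2.01.

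Markers of some other liver cells moved between the same groups, where 12.8% of all genes tested were called. The 10 stellate cell and fibroblast markers summed to 426 to 595 CPM in controls and 323 to 406 CPM in fusion livers, with 3 of 10 called lower. The 6 bile duct markers summed to 61.1 to 90.0 CPM and 24.7 to 52.6 CPM, again with 3 called lower. No marker of either list was at 0 in all libraries. None of the 7 endothelial, 7 erythroid and 7 macrophage markers tested was called. The part of these cells in the falls of Dlk1, Meg3 and Grb10 was not tested, and in bulk tissue fewer cells of a type cannot be told apart from less RNA per cell.

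The PKA catalytic subunit phosphorylates CREB, a factor that binds the cAMP response element, so the windows before the members' start sites were searched for that element. RefSeq (GRCm38.p6) gave windows for 8 of the 10 members. The 8-base element TGACGTCA, which reads the same on both strands, occurred in the 250 bases before a start of 2 of these 8, Peg3 and Meg3, and of 1.77% of the 27025 genes with a window. By window this was 2 of the members' 15 and 1.55% of all 32851. Its 5-base core TGACG, which the full element also contains, occurred on either strand in 5 of the 8 (Igf2, Dlk1, Peg3, Grb10 and Meg3) and in 19.8% of genes. By window this was 5 of 15 and 17.8%. Both windows with the full element are shown 5′ to 3′ because Meg3 fell and Peg3 rose in the fusion livers; capitals mark the element, 171 to 178 bases before the Peg3 start and 50 to 57 bases before the Meg3 start. The Peg3 window is chr7:6730420-6730669 on the minus strand and the Meg3 window chr12:109540746-109540995 on the plus strand.
Peg3: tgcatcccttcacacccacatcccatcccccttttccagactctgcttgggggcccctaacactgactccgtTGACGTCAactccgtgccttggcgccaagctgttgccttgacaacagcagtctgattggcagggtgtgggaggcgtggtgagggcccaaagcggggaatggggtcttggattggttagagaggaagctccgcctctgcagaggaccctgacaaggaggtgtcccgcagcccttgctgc
Meg3: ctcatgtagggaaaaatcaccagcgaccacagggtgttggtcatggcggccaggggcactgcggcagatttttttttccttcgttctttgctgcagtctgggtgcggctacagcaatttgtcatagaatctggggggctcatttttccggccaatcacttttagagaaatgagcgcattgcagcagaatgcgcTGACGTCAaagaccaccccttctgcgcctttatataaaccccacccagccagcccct
A match of these letters describes the window and does not show binding. Whether the element had a part in the change of either gene was not tested.

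Other imprinted genes gave a background for the members. Of 39 tested, 4 rose and 1 fell in fusion livers, 12.8% of them, the same share as over all genes, so the count is no result about imprinted genes. Peg10, a retrotransposon-derived placental gene, went from 13.4 ± 4.83 to 114 ± 44.2 CPM (log2 fold change 3.08 ± 0.33, edgeR adjusted p = 0.00028), while Sgce, its neighbour in the same imprinted cluster and chosen here after its values were seen, was 21.1 and 20.1 CPM. Slc22a3, a transporter of organic cations, rose by 1.37, and the amino acid transporter Slc38a4 by 0.86. Ppp1r9a, a cytoskeletal protein, fell by 0.63. The remaining call, named because the count is small, was Zim1, the neighbour of Peg3, at 0.90 ± 0.36 CPM in controls and 3.31 ± 1.86 CPM in fusion livers (log2 fold change 1.87, edgeR adjusted p = 0.012).

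Genes that act on the IGF2 pathway or maintain imprints gave mixed counts, where 12.8% of all genes tested were called. Of 13 IGF receptor and binding protein genes tested, 3 rose and 2 fell, among them the receptor substrate Irs1 (log2 fold change 0.67), the growth factor Igf1 (0.76), the binding protein Igfbp6 (-1.06) and the insulin receptor Insr (-0.58). Of 13 imprint maintenance genes, the chromatin proteins Smchd1 (0.53) and Ctcf (0.36) rose and none fell. That is 15.4%, near the share over all genes, so the count is no result about such genes. Of 12 other fetal liver genes, Bex1 (1.13), Bex4 (1.09) and Afp (0.86), the fetal serum protein alpha-fetoprotein, rose, and Gpc3 (-0.79), a cell surface proteoglycan, fell.

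In the tumours, no member passed the threshold between palbociclib and vehicle. Limma on log2(CPM + 1) tested 6 members, since Dlk1, Peg3, Plagl1 and Ndn had a mean under 1 CPM. Over all 12829 genes limma called 0 (0%), with 586 at an unadjusted p under 0.05 and a smallest adjusted p of 0.95. On the recovered reads edgeR called 0 genes as well, and DESeq2 called 8, none of them a member. No member had groups that did not overlap, where 0.935% of all genes did. The median log2 difference of the 6 members was 0.04, against 0.14 over all genes, and the latter was 0.00 with TMM factors. With 5 tumours per group, these results do not show that the treatments acted alike.

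Igf2 was 2477, 12374, 9613, 14837 and 4014 CPM in vehicle tumours 1 to 5. It was 11175, 25064, 17605, 32789 and 11444 CPM in palbociclib tumours 1 to 5. The palbociclib tumours reached higher values, and the groups overlapped between 11175 and 14837 CPM. The difference on the log2(CPM + 1) scale was 1.34 ± 0.55 (SE, limma adjusted p = 0.95). It was among the 586 genes under an unadjusted p of 0.05, and without vehicle tumours 1 and 5 it was 0.57.

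H19 was 883, 2959, 2539.7, 1136 and 1684 CPM in vehicle tumours and 2127, 3955, 3431, 2579 and 1908 CPM in palbociclib tumours. The groups overlapped, with vehicle tumours 1 and 4 lowest, and the difference was 0.70 ± 0.38 (limma adjusted p = 0.95). Over the 10 tumours log2 levels of H19 and Igf2 had a Pearson r of 0.70 (permutation p = 0.025, adjusted p = 0.033 over 4 relations) and a Spearman rho of 0.68 (permutation p = 0.034). Leaving out vehicle tumours 1 and 4, the farthest from the median, gave r = 0.71. Without vehicle tumours 1 and 5, however, r was 0.35 (unadjusted permutation p = 0.40), so the relation rested on those libraries. The r over all tumours pools both treatments, and the permutation did not keep them apart, so it is no test within a treatment. Scaling also enters: in vehicle tumour 1, with 46.6% of reads on mitochondrial genes, both genes were higher over the shared genes without mitochondrial genes (H19 1830 CPM, Igf2 5132 CPM). The r of H19 with Igf2 and of Dlk1 with Meg3 over the embryos is not given, since their libraries form separate sets. Both embryo pairs are counted among the 4 relations.

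Meg3 was 23.8, 345, 268, 60.2 and 66.0 CPM in vehicle tumours and 78.9, 53.7, 81.3, 189 and 192 CPM in palbociclib tumours. Vehicle tumours 2 and 3 were the highest and vehicle tumour 1 the lowest of all 10. The difference was 0.10 ± 0.58, and it was -0.054 with TMM factors and -0.76 without vehicle tumours 1 and 5, so no direction is given. Grb10 was 68.2, 125, 112, 77.2 and 45.7 CPM in vehicle tumours and 91.6, 66.5, 82.3, 80.2 and 78.5 CPM in palbociclib tumours, with all palbociclib values inside the vehicle range (limma difference -0.02 ± 0.27).

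Cdkn1c was 2.81, 2.37, 2.06, 0.767 and 2.03 CPM in vehicle tumours and 0, 0.882, 3.45, 1.76 and 1.89 CPM in palbociclib tumours. Mest was 1.06, 0.902, 1.03, 0.808 and 2.71 CPM in vehicle tumours and 1.51, 0.311, 1.32, 0.440 and 0 CPM in palbociclib tumours. Both genes overlapped between treatments and were far under their embryonic levels. Ndn ranged from 0 to 2.03 CPM and Plagl1 from 0 to 0.932 CPM over the 10 tumours, with Plagl1 at 0 reads in 6 of 10. Dlk1 had 8 reads in vehicle tumour 1, 12 in palbociclib tumour 2, 4 in palbociclib tumour 4 and 0 in the other 7. Peg3 had 14, 10 and 8 reads in vehicle tumour 3 and palbociclib tumours 2 and 4 and 0 in the other 7. A count of 0 allows up to 3 reads, which is 0.0695 to 1.01 CPM in the tumour libraries.

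Whether FL8 tumours kept fetal levels of the members was described by comparing the 5 vehicle tumours with the 9 embryos. Most members were under fetal levels: 8 of 10 lay below the range of all embryos in every vehicle tumour (H19, Dlk1, Peg3, Mest, Plagl1, Cdkn1c, Grb10 and Ndn), where 18.2% of the 12522 genes in both tables did. Igf2 lay above the embryos, where 21.6% of genes did, and Meg3 overlapped with them. Levels for this comparison are CPM over those 12522 genes without mitochondrial genes. The embryo libraries were made from poly-A RNA and the tumour samples are labelled total RNA, and tumours and livers also differ in cell makeup, laboratory and sequencing. These differences cannot be told apart from one between tumour and fetal liver, so no test is given.

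**Figure D3:**
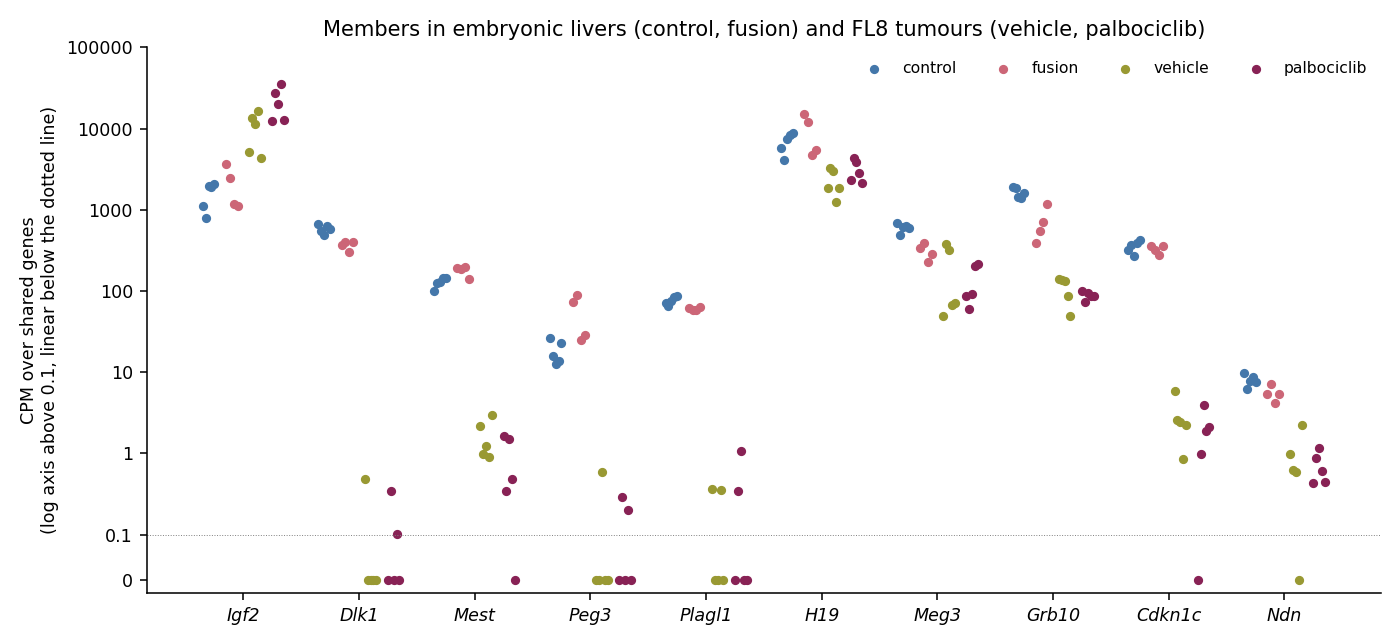
CPM over the 12522 shared genes (vertical axis, log scale above 0.1 and linear below the dotted line) of each member in every library of the 4 groups. In the tumours Dlk1, Peg3 and Plagl1 are at or near 0, Mest, Cdkn1c and Ndn at a few CPM or fewer, and Igf2 lies above all 9 embryos.

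Igf2 was 787 to 3678 CPM over the shared genes in the embryos, with a median of 1884, and 4368 to 16442 CPM in the vehicle tumours, with a median of 11478. The vehicle mean was 6.50 times the control mean. Palbociclib tumours ranged from 12232 to 35637 CPM. On CPM of the whole library and on the percentile rank among the shared genes, the vehicle tumours overlapped with the embryos. The embryo libraries held no counts on mitochondrial genes, so whole-library CPM is not alike in the 2 tables. On that scale vehicle tumour 1, with 46.6% of its reads on mitochondrial genes, was lowest at 2477 CPM, and vehicle tumour 5 followed at 4014 CPM. Its percentile among the shared genes was 98.7 to 99.9 in the embryos and 99.8 or more in the vehicle tumours. Relative to hepatocyte markers it lay above the embryos. Of its exon bases 62.8% are shared on the same strand with the gene model Gm49394, so the treatment of shared reads in counting can move its level.

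Dlk1 was 302 to 661 CPM in the embryos and 0 to 0.489 CPM in the vehicle tumours. With tumours under 3 reads set to that floor, the lowest embryo was 273-fold higher than the highest vehicle value. The same ratio was 52.7-fold for Plagl1 and 11.3-fold for Peg3. All 3 ratios were set by the floor of vehicle tumour 5, and without that library they were 616-fold, 158-fold and 21.1-fold. Low tumour read numbers were mostly even, and whether both mates of a fragment were counted was not tested. A floor of 6 reads, chosen after seeing this, gave 137-fold, 26.3-fold and 5.66-fold. Cdkn1c was 268 to 420.3 CPM in embryos and 0.850 to 5.81 CPM in vehicle tumours, and the ranges were 46.0-fold apart, or 102-fold without vehicle tumour 1. Mest was 100.4 to 199.7 CPM in embryos and 0.895 to 2.95 CPM in vehicle tumours, 34.1-fold apart. With the floor of 3 reads these 5 members were at least 10-fold below every embryo (4 with 6 reads, Peg3 being lost), as were 1.01% of all shared genes and 1.32% of the 9603 shared genes at 3 CPM or more in every embryo. With the floor of vehicle tumour 5, genes at a few CPM in embryos, Ndn among them, could not be 10-fold below. Both shares are therefore kept low by the floor.

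Grb10, H19 and Ndn had smaller gaps to the embryos. Grb10 was 389.7 to 1898 CPM in embryos and 49.7 to 141 CPM in vehicle tumours, a gap of 2.76-fold. H19 was 4065 to 15133 CPM and 1259 to 3263 CPM, a gap of 1.25-fold that closed when the palbociclib tumours, with up to 4374 CPM, were included. By percentile among the shared genes H19 was not below: it was 99.86 to 99.97 in embryos and 99.35 to 99.86 in vehicle tumours. Ndn was 4.18 to 9.87 CPM and 0 to 2.21 CPM, a gap of 1.89-fold, or 4.27-fold without vehicle tumour 5. At such low embryonic levels the floor of 3 reads in vehicle tumour 5 limits the gap that can be seen. Meg3 was 230.1 to 694 CPM in embryos and 49.3 to 381 CPM in vehicle tumours, of which only tumours 2 and 3 reached the embryonic range.

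The order of the members by level per length (CPM per kilobase of exon) differed between the tissues. In control livers H19 was highest at 2675 ± 681, followed by Igf2 at 262 ± 89.2, Grb10 at 174 ± 31.8, Cdkn1c at 167 ± 27.9 and Dlk1 at 99.6 ± 12.6 CPM per kilobase. The ranges of Igf2 and Grb10 overlapped, as did those of Grb10 and Cdkn1c. Meg3 at 32.1, Mest at 31.3, Plagl1 at 9.43, Ndn at 2.09 and Peg3 at 1.33 CPM per kilobase came last, where Meg3 overlapped with Mest and Ndn with Peg3. In vehicle tumours Igf2 was highest at 1514 ± 927, then H19 at 748 ± 362, Grb10 at 9.44 ± 3.59 and Meg3 at 8.44 ± 7.97 CPM per kilobase, and all others were under 1. The ranges of Igf2 and H19 overlapped, as did those of Grb10 and Meg3.

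Igf2 and H19 share an imprinted cluster on chromosome 7, as Dlk1 and Meg3 do on chromosome 12, and in both clusters the ratio of the genes differed between tumours and embryos with no overlap. These ratios of reads within a library need no scaling between libraries and were chosen after values of these data were seen. They still depend on RNA type (poly-A or total) and alignment, which differed, and on counting, which was done separately. Of Igf2 exon bases 62.8% are shared with Gm49394, so counting can move the H19 ratio. These differences cannot be told apart from one between tumour and fetal liver. H19 had 5.12, 5.17, 3.80, 4.41 and 4.23 reads per Igf2 read in controls 1 to 5 and 4.11, 4.88, 4.03 and 4.90 in fusion embryos 6 to 9. The ratio lay within 3.80 to 5.17 in libraries whose H19 levels ranged from 4121 to 13995 CPM, and its genotype difference did not pass (exact two-sided permutation p = 0.91, adjusted p = 0.91). In vehicle tumours 1 to 5 it was 0.357, 0.239, 0.264, 0.0766 and 0.419, and in palbociclib tumours 0.190, 0.158, 0.195, 0.0786 and 0.167. All 10 tumours lay under all 9 embryos, and the difference between treatments did not pass (exact two-sided permutation p = 0.23, adjusted p = 0.35).

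For the chromosome 12 cluster, Meg3 had 0.725 to 1.27 reads per Dlk1 read in the 9 embryos. With Dlk1 raised to 3 reads where it had fewer, the tumours had 65.0 to 2517 Meg3 reads per Dlk1 read, the lowest in vehicle tumour 5 and 101 without it. The tumours that kept the most Meg3, vehicle tumours 2 and 3, had 0 reads of Dlk1.

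**Figure D4:**
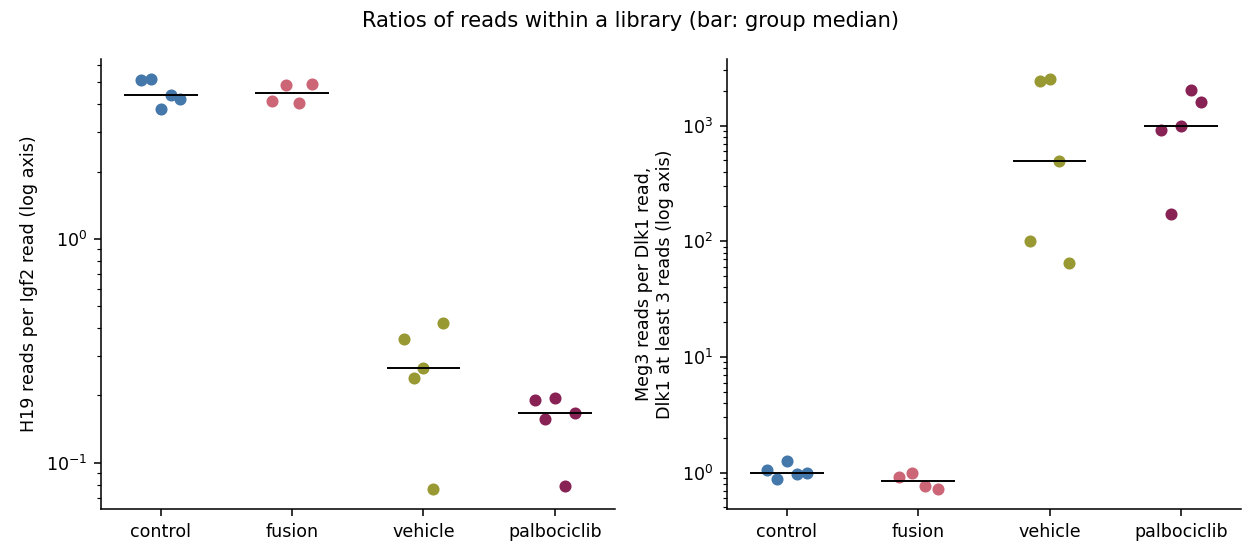
H19 reads per Igf2 read (left) and Meg3 reads per Dlk1 read with Dlk1 set to at least 3 reads (right), on log axes, in each library of the 4 groups, with bars at the medians. Embryos lie between 3.80 and 5.17 on the left and between 0.725 and 1.27 on the right, and all tumours lie below and above these ranges.

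Other gene lists were placed against the embryos in the same way. Of 33 other imprinted genes held by both tables, 7 lay below the embryos in every vehicle tumour (21.2%), 6 above (18.2%) and 20 overlapped, shares near the 18.2% below and 21.6% above over all shared genes. Of 8 fetal liver genes 7 lay below, among them Afp, at 39436 to 94938 CPM in embryos and 196 to 477 CPM in vehicle tumours, while Gpc3 lay above, at 137 to 398 and 596 to 1135 CPM. Of 5 postnatal repressors of fetal liver genes 4 lay above, among them Zbtb20, a zinc finger repressor of Afp, at 0.278 to 1.29 CPM in embryos and 35.0 to 67.1 CPM in vehicle tumours, and Zhx2, which lowers Afp and H19 after birth, at 3.65 to 6.04 and 11.8 to 27.7 CPM. Of 13 IGF receptor and binding protein genes 1 lay below the embryos, 6 lay above (46.2%) and 6 overlapped. The 1 below was Igf1r, a receptor through which IGF2 signals but not the only one, at 12.9 to 19.1 CPM in embryos and 0 to 1.84 CPM in vehicle tumours. These genes were chosen for naming after their values were seen. No gene of these lists passed the limma threshold between treatments.

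The tumours differed among themselves in markers of other cells. The 10 erythroid markers summed to 1297 to 95969 CPM over the vehicle and 1735 to 8423 CPM over the palbociclib tumours, and the macrophage markers to 78.6 to 1659.99 and 105 to 351 CPM. The 10 stellate cell and fibroblast markers summed to 157 to 348 CPM over all 10. No marker of these lists was at 0 in every tumour. The part of such cells in the levels of Igf2, H19, Meg3 and Grb10 was not tested.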

How the data were processed

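The authors deposited raw counts per gene for the embryos, per the file headers, and CPM per gene for the tumours. The submitters' processing notes name mm10 for both, STAR 2.5.1b and DESeq2 for embryos, and cutadapt 2.10, HISAT2, featureCounts, DESeq2 and R 4.1.2 for tumours. Whether counting used strand is not given in the sources used here, so genes with antisense partners (Cdkn1c, Mest, Meg3) are uncertain. Tumour CPM gave whole reads for 100% of values (tolerance 0.01). Of genes with 1 to 20 reads, 64.5 to 76.0% had an even number in tumours and 48.7 to 53.3% in embryos. Library replicates are samples the labels list separately, and no pair agreed within sampling noise (lowest chi-square per degree of freedom 13.0). P-values measure the spread between these samples, which may be technical.

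Embryos were tested with edgeR 4.0.16 (quasi-likelihood, TMM, filterByExpr) and tumours with limma 3.58.1 (trend) on log2(CPM + 1), where the mean over tumours had to reach 1 CPM. That scale understates changes of low genes. P-values were adjusted by Benjamini-Hochberg over all genes tested. Coordinates and exon lengths are from GENCODE for GRCm38. All members were named. Of other lists at most 4 genes past the threshold, by adjusted p, were named. Members and lists were chosen with earlier results of these data known. Alternatives were other size factors, filters, pseudocounts, tools, covariates, subsets and each library left out. Floors (3 reads) cover counting error only.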

Additional observations from a re-analysis of the deposited data

Results flagged for a closer look

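In 6 of 56 groups of values the highest or lowest library stood apart from the others of its group, and chance gives about 2.8. That number does not hold for near-silent genes such as Dlk1 and Peg3. There, 1 library with reads among libraries at 0 is always flagged, so no excess is read from the count. Fusion embryo 6 had 45.6 M (1000000) counts, where the other fusion embryos had 13.5 to 16.4 M. Vehicle tumour 1 had 46.6% of its reads on mitochondrial genes, where the other vehicle tumours had 1.24 to 4.12%. It was also the only vehicle tumour with any Dlk1 reads, at 0.236 CPM from 8 reads, with 0 in the others. Peg3 was 0.496 CPM in vehicle tumour 3 and 0 in the other vehicle tumours. Mest was 2.71 CPM in vehicle tumour 5 against 0.808 to 1.06 CPM, and Ndn was 2.03 CPM there against 0 to 0.569 CPM. Vehicle tumour 5 was the shallowest library, so that these values rest on 8 reads of Mest and 6 of Ndn.

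The change of Peg3 in fusion livers differed between the ribosomal sets by 2.01 on the log2 scale (edgeR adjusted p = 0.036). It was higher by 2.30 in the lower set, where genotype and sex coincided, and by 0.30 in the higher set. Of all 13316 genes tested for such a difference, 25 passed.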

How the results depend on the processing

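The falls of Dlk1 and Meg3 passed the edgeR threshold in the 8 alternatives and in the 9 fits without 1 library, and that of Grb10 in the 8 alternatives and 6 of the 9. The call count of 1704 genes became 4345 with the ribosomal set as a covariate, 2589 within the higher and 2950 within the lower set, and 969 to 1581 without 1 library, the lowest 3 being 969 without control 3, 987 without fusion 8 and 1107 without fusion 7. The 5 called members became 8 with that covariate, which added Igf2, Plagl1 and Ndn, 3 within the higher and 8 within the lower set, 3 with sex as a covariate and 2 to 5 without 1 library. DESeq2 called 7. A filter at a mean of 10 CPM kept 5 but replaced Mest with Plagl1. The cause was not tested.

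In tumours DESeq2 called 8 genes where limma called 0. The Meg3 difference of 0.10 became -0.054 with TMM factors, -0.047 without mitochondrial genes, -0.38 with edgeR, -0.38 with DESeq2, -0.76 without vehicle 1 and 5, and -0.40 to 0.55 without 1 library. That of Grb10 ranged from -0.22 to 0.14 without 1 library. Tumours of the 2 treatments share replicate numbers, but the deviations of same-numbered tumours correlated at -0.32 to 0.00, so the numbers were not taken as pairs. With the replicate block limma called 0 genes and 460 had an unadjusted p under 0.05. Igf2 and H19 were among these, with unadjusted limma p of 0.0027 and 0.048, against 0.026 and 0.082 without the block. Neither passed the threshold with the block (limma adjusted p = 0.98 for Igf2).

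Of members above the embryos, 1 (Igf2) became 0 on whole-library CPM and 0 by percentile rank, while 7 or 8 members lay below under each alternative. H19 was the member that overlapped by percentile rank and with all 10 tumours. The correlation of H19 with Igf2 fell to 0.35 without vehicle 1 and 5. Depth limits Dlk1, Peg3, Plagl1, Ndn, Mest and Cdkn1c in the tumours most, and vehicle 5 above all, where 3 reads are 1.01 CPM.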
